A study of Mus musculus with 12 samples.

Results

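The genes described here encode neurotransmitter receptors of the mouse: serotonin receptors (Htr), nicotinic acetylcholine receptor subunits (Chrn), ionotropic GABA receptor subunits (Gabr), glycine receptor subunits (Glr), P2X receptors for ATP (P2rx), and the ionotropic (Gria, Grik, Grid, Grin) and metabotropic (Grm) glutamate receptors. They were matched by gene symbol, not by level, and 87 of the 55487 genes in the count table carried such a symbol. This set of genes was chosen with earlier results of these data known. Of these 87 genes, 63 had enough reads to be tested, among 18109 genes tested in all. The other 24 had between 0 and 86 counts summed over the 12 libraries and did not exceed 1.03 CPM (counts relative to the library total, with totals scaled by TMM) in any library. Among the 63 genes, 2, Gabra2 and Htr5b, passed the filter on low counts through the libraries of a single group. For Gabra2 these were the day 2 libraries with the drug doxycycline, where it was called higher. For Htr5b they were the day 2 libraries without the drug, and it was called lower with it. Htr3b, higher with doxycycline, reached the filter level only in libraries with it, and Grm3, lower with it, only in libraries without. Each of these genes thus entered the tests through the side where it is higher, and its calls are to be read with that limit.

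The libraries are bulk RNA-seq of embryoid bodies, which are free-floating aggregates of differentiating cells. They were grown from epiblast stem cells, cells of the kind that forms the embryo just before gastrulation, that had been derived in culture from embryonic stem cells. All groups carry the same construct, which makes FLAG-tagged Mixl1 in the presence of doxycycline, so the cells without the drug carry it too. Mixl1 is a homeobox transcription factor of the primitive streak. The 4 groups had 3 libraries each: D1Dox_d2 (doxycycline at 1 µg/mL, collected on day 2), NoDox_d2 (no doxycycline, day 2), D3Dox_d4 (doxycycline at 1 µg/mL, day 4) and NoDox_d4 (no doxycycline, day 4). The labels do not explain the prefixes D1 and D3. Whether the cells were 1 clone, and whether the 3 libraries of a group came from separate cultures, is not given in the sources used here, so the p-values measure the spread between libraries, which may be technical.

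Neurotransmitter receptors are of a pair of kinds. Ionotropic receptors are ion channels built from several subunits that open when the transmitter binds: the 5-HT3, nicotinic, GABA-A and glycine receptors are related pentamers, ionotropic glutamate receptors are tetramers, and P2X receptors are trimers. Metabotropic receptors, which include most serotonin receptors and the Grm family, act through G proteins. Which subunits a cell makes sets the ion selectivity and transmitter affinity of its channels, and several subunits do not form a channel on their own. Autonomic ganglion neurons are known for nicotinic receptors of the alpha3, alpha5 and beta4 subunits, and sensory and autonomic neurons for 5-HT3 and P2X receptors.

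Each library held between 24100487 and 28020036 counted reads, so that 3 counts corresponded, by total, to between 0.107 and 0.124 CPM. Mixl1 itself had between 362 and 478 CPM in the 6 doxycycline libraries, against 0.593 to 1.83 CPM in 5 of the 6 libraries without it. The remaining one, the library labelled NoDox_d2 replicate 1, had 91.0 CPM of Mixl1. The gene count does not separate the tagged transcript from the cell's own. Replicate 1 of NoDox_d2 and replicate 1 of NoDox_d4 stood apart from the others of their groups, with correlations of log2 levels of 0.957 to 0.961 against 0.990 to 0.991 between the other 2 libraries. The tests of receptor genes that compare with these groups were therefore also run without both. The further lists and the cell type markers below are given for all libraries only, without this check. The summed level of 6 epiblast markers, which check the labelled cell type, was 389 to 418 CPM in D1Dox_d2 and 704 to 975 CPM in NoDox_d2 libraries, and 129 to 149 CPM in D3Dox_d4 and 238 to 317 CPM in NoDox_d4 libraries.

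Receptor genes were more often higher than lower with doxycycline. At day 2, 26 of the 63 genes tested were higher and 5 were lower in D1Dox_d2 than in NoDox_d2 libraries (edgeR quasi-likelihood test, Benjamini-Hochberg adjusted p under 0.05 over all genes tested). These are 49.2% of the receptor genes tested, where 28.4% of all genes tested were called, 14.9% of them higher and 13.4% lower. At day 4, 21 were higher and 2 were lower in D3Dox_d4 than in NoDox_d4 libraries, or 36.5% of those tested, where 23.5% of all genes were called, 13.4% higher and 10.2% lower. The median log2 fold change of the 63 genes was 0.62 at day 2 and 0.71 at day 4, against -0.03 over all genes at either day. As the set was chosen with earlier results of these data known, its shares and medians describe it and do not test it. In bulk libraries, more cells of a type and more RNA per cell cannot be told apart.

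Of the 63 genes, 16 were higher at both days, 10 were higher at day 2 only, 5 were higher at day 4 only and 1 was lower at both. A further 4 were lower at day 2 only and 1 at day 4 only, while 26 were called at neither. The shares of all genes in these classes were not computed. For every one of the 31 and 23 calls, the 3 doxycycline libraries and the 3 libraries without doxycycline of that day did not overlap. The share of all called genes without overlap was not computed, so this does not set the receptor genes apart. Without replicate 1 of both NoDox groups, all 31 calls of day 2 and all 23 of day 4 were kept in the same direction. The counts grew to 35 higher and 13 lower at day 2 and to 26 higher and 6 lower at day 4. The number of all genes called grew as well, from 5136 to 9902 at day 2 and from 4263 to 7168 at day 4. When each of the 6 libraries of a comparison was left out in turn, 19 of the 31 day 2 calls and 16 of the 23 day 4 calls held in every fit. The others that are reported here are named below with the libraries they depend on.

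**Figure D1:**
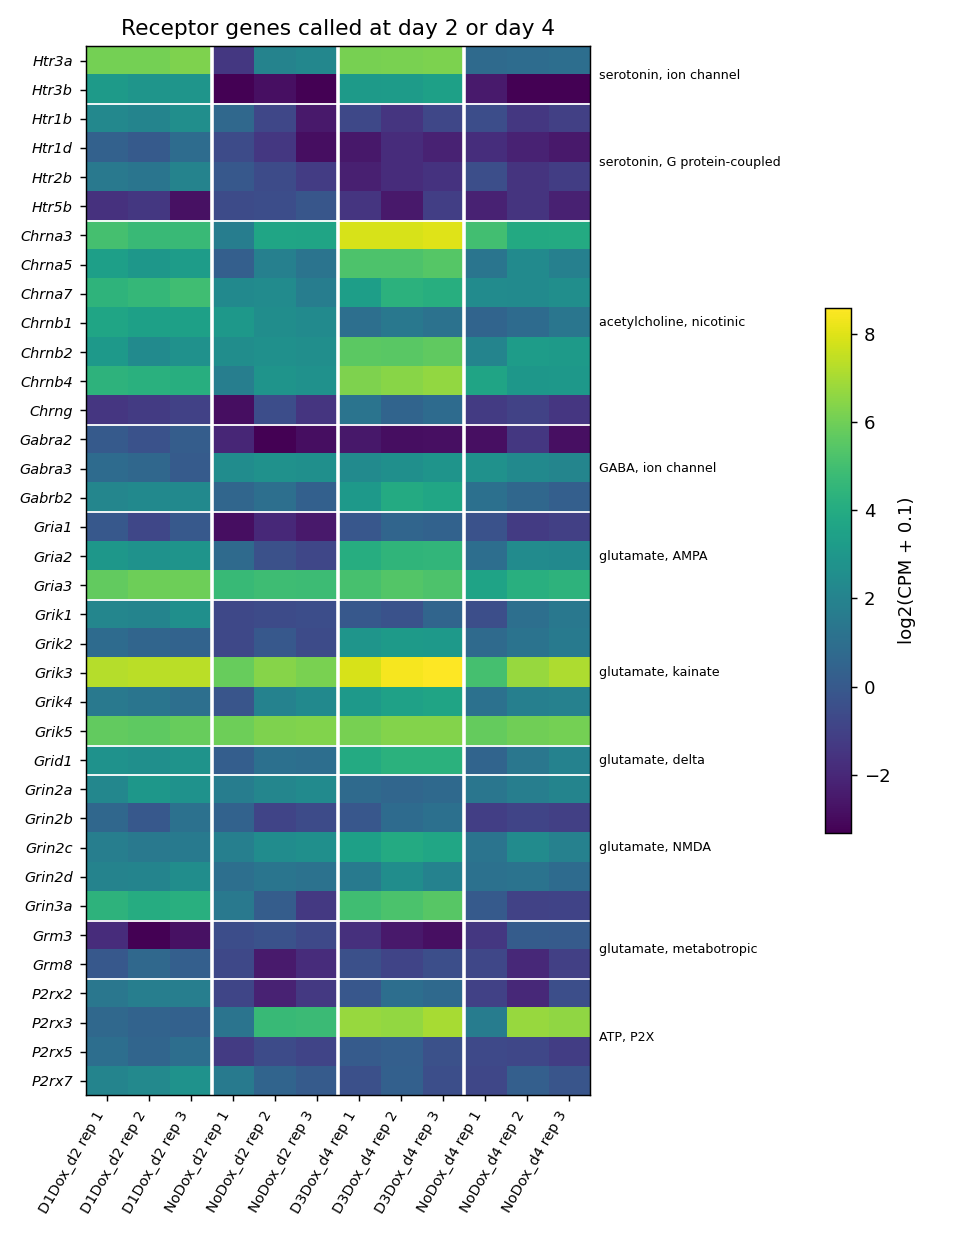
Level of the receptor genes called in either doxycycline comparison and reported here (rows, grouped by family) in each of the 12 libraries (columns, with D1Dox_d2 left of NoDox_d2 and D3Dox_d4 left of NoDox_d4), as log2(CPM + 0.1). Htr3b was at or near the floor in all 6 libraries without doxycycline, and the brightest cells at day 4 are those of Grik3 and Chrna3.

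By family, both 5-HT3 subunits were higher at both days. Of 10 nicotinic subunits tested, 5 were higher at day 2 and 6 at day 4, with none lower. Of the 18 ionotropic glutamate receptor genes, 10 were higher and 1 was lower at day 2, and 10 were higher and 1 was lower at day 4. Of 6 P2X genes, 3 were higher and 1 lower at day 2, and 2 were higher at day 4. Of 12 GABA-A subunits, 2 were higher and 1 was lower at day 2, or 25.0%, near the 28.4% of all genes, and 1 was higher at day 4, or 8.33%, where 23.5% of all genes were called. None of the inhibitory glycine receptor genes was called in all libraries, with 0 of 3 glycine receptor subunits called by edgeR at either day. Of the 3 glycine subunits, 2 had an unadjusted edgeR p under 0.05 at day 2 and 1 at day 4, and the DESeq2 test called 2 and 0. Without both NoDox replicates 1, edgeR called Glrb higher (0.67, edgeR adjusted p = 0.0135) and Glra1 lower (-2.69, 1.22e-05) at day 2. Glra2 was then called higher at day 4 (3.19, edgeR adjusted p = 0.000175), with 2 and 5 counts in the NoDox_d4 libraries that remained. Of 7 G protein-coupled serotonin receptors, 3 were higher and 1 lower at day 2. At day 4, 0 were called by edgeR or DESeq2, and 1 had an unadjusted edgeR p under 0.05. Without both NoDox replicates 1, edgeR called Htr6 higher at day 4 (1.66, edgeR adjusted p = 0.0297). In that fit Htr7 (1.53, edgeR adjusted p = 0.000878) and Htr2a (4.32, 0.000121) were called higher at day 2. Htr2a had 3 and 1 counts in the NoDox_d2 libraries that remained.

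**Figure D2:**
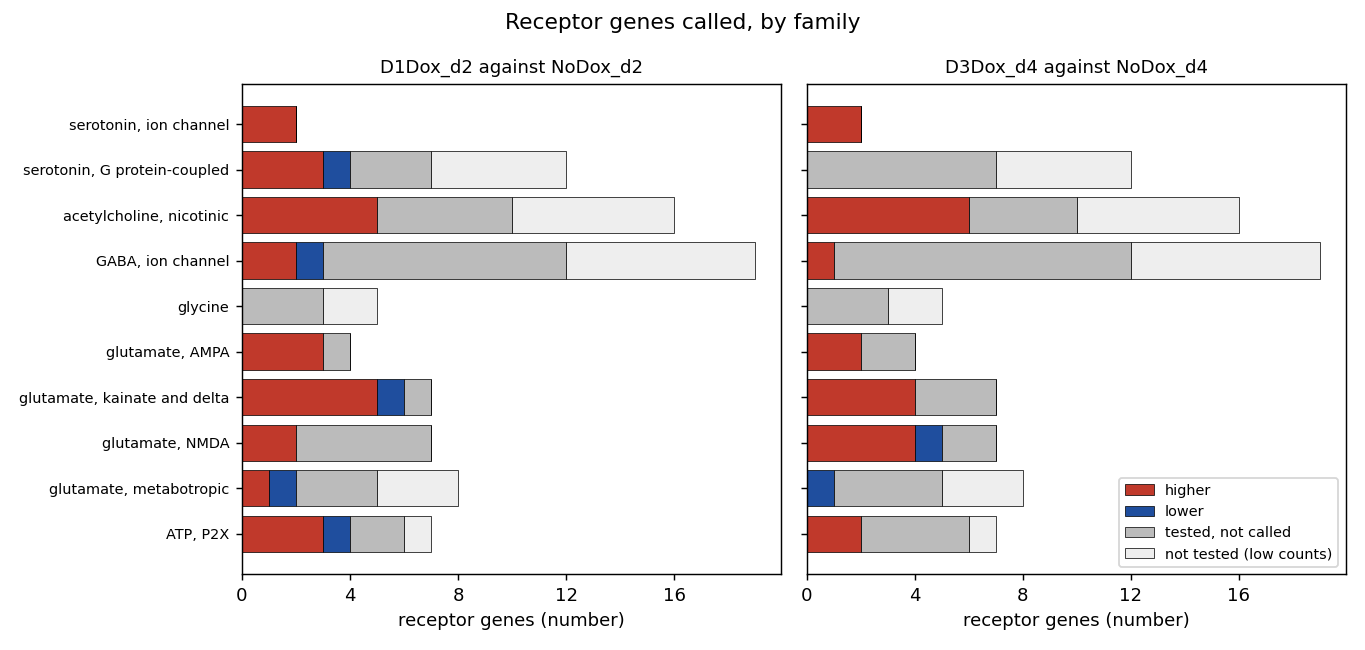
Number of receptor genes of each family, with kainate and delta receptors in 1 bar, that were higher, lower, tested but not called, or not tested for low counts, in D1Dox_d2 against NoDox_d2 (left) and D3Dox_d4 against NoDox_d4 (right). The nicotinic bar holds 5 higher genes at day 2 and 6 at day 4, and the GABA bar, with 19 genes the longest, is mostly grey.

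The serotonin-gated channel genes stood out, and Htr3b had the highest fitted log2 fold change of the 63 genes at both days. Htr3a encodes the subunit that forms the serotonin-gated cation channel on its own, and Htr3b encodes a partner that joins it and does not form a channel alone. Htr3a had 68.3, 68.5 and 78.4 CPM in D1Dox_d2 libraries, against 0.282, 3.91 and 4.42 CPM in NoDox_d2 libraries. At day 4 it had 70.8, 72.8 and 75.9 CPM in D3Dox_d4 libraries, against 1.66, 1.75 and 1.84 CPM in NoDox_d4 libraries. The doxycycline libraries of both days lay close together and far above all libraries without the drug, of which NoDox_d2 replicate 1 was the lowest. Htr3a rose by a log2 fold change of 4.65 ± 0.56 (SE) at day 2 (edgeR adjusted p = 0.000141) and of 5.38 ± 0.59 at day 4 (edgeR adjusted p = 8.05e-05). Without both NoDox replicates 1, these were 4.09 and 5.34.

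Htr3b had 8.75, 7.20 and 7.28 CPM in D1Dox_d2 libraries, against 0, 0.0395 and 0 CPM in NoDox_d2 libraries. In D3Dox_d4 libraries it had 8.93, 9.07 and 10.6 CPM, against 0.0789, 0 and 0 CPM in NoDox_d4 libraries. It was thus all but undetected without doxycycline, with 1 count against 576 at day 2 and 2 counts against 760 at day 4. Scaled to the library totals, the ratio of summed counts was 626 at day 2 (95% interval 112 to 24770, counting error only) and 361 at day 4 (99.7 to 2989). The call was made at both days (edgeR adjusted p = 2.37e-06 at day 2 and 2.60e-06 at day 4), with fitted log2 fold changes of 8.81 and 8.26 that rest on these few counts. They became 10.64 without NoDox_d2 replicate 2 and 10.95 without NoDox_d4 replicate 1, the libraries that hold the counts. Per length, Htr3a exceeded Htr3b, with 34.4 ± 2.78 FPKM (CPM per kilobase of exon) against 3.21 ± 0.362 FPKM in D1Dox_d2 (SD, n = 3). Htr3a was the receptor gene with the highest mean FPKM in that group.

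Both genes lie on the minus strand of chromosome 9 (GRCm38, GENCODE gene models), Htr3a (ENSMUSG00000032269.8) at 48899213 to 48911099 and Htr3b (ENSMUSG00000008590.4) at 48935008 to 48964990, with 23908 bases between them. The promoter of Htr3b is shown because the gene had almost no reads without doxycycline, and because its window holds a motif of the kind that paired-like homeodomain proteins, Mixl1 among them, are known to bind as dimers. The sequence is from RefSeq (GRCm38.p6), chr9:48964941-48965240, minus strand, from 250 bases before the gene start to 50 after it. Capitals mark the match to TAATNNNATTA, a palindrome that reads the same on both strands:
Htr3b promoter: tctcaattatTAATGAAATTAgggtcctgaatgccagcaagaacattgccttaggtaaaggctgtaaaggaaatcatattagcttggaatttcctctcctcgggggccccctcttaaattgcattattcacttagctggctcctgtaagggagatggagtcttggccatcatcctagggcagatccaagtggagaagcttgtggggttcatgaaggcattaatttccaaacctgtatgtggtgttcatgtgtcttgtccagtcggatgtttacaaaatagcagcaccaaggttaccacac
This motif was present in 0.485% of 32817 mouse promoter windows of the same length. Among the 61 receptor genes with a promoter entry, Htr3b was the only one that held it, and its neighbour Htr3a had no entry. As the window was chosen in part for the motif, these shares do not test it. The shorter motif TAATTA, also its own reverse complement, was in 5.30% of all windows and in those of 3 receptor genes, Chrnb1, Gabrg1 and Htr2a, but not in that of Htr3b. A match is a description of the letters in this window and not a site of binding.

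Nicotinic receptors are cation channels gated by acetylcholine. The genes for alpha3 (Chrna3), alpha5 (Chrna5) and beta4 (Chrnb4), the subunits of the ganglionic receptor, sit next to each other on chromosome 9 and all 3 were higher at both days. Chrna3 and Chrnb4 together form a working channel, while alpha5 joins as an accessory subunit. Chrna3 had 33.4, 26.9 and 26.9 CPM in D1Dox_d2 libraries, against 3.18, 12.5 and 12.3 CPM in NoDox_d2 libraries. At day 4 Chrna3 had 231, 229 and 254 CPM in D3Dox_d4 libraries, against 31.2, 14.8 and 15.2 CPM in NoDox_d4 libraries. Replicate 1 was the lowest NoDox library at day 2 and the highest at day 4, and stayed on the same side of the doxycycline libraries both times. Chrna3 rose by a log2 fold change of 1.64 ± 0.42 at day 2 (edgeR adjusted p = 0.0134) and of 3.54 ± 0.44 at day 4 (edgeR adjusted p = 0.000182). Without both NoDox replicates 1 these values were 1.22 and 3.99.

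Chrna5 had 10.6, 7.89 and 9.49 CPM in D1Dox_d2 libraries, against 1.13, 3.48 and 2.31 CPM in NoDox_d2 libraries. In D3Dox_d4 libraries it had 38.2, 37.9 and 42.8 CPM, against 2.37, 5.12 and 3.57 CPM in NoDox_d4 libraries. The groups were apart at both days, with the wider gap at day 4. Its log2 fold change was 2.02 ± 0.35 at day 2 (edgeR adjusted p = 0.00166) and 3.43 ± 0.36 at day 4 (edgeR adjusted p = 5.58e-05). Chrnb4 had 20.6, 19.0 and 17.6 CPM in D1Dox_d2 libraries, against 3.28, 6.96 and 6.36 CPM in NoDox_d2 libraries. In D3Dox_d4 libraries Chrnb4 had 78.4, 89.5 and 98.9 CPM, against 12.3, 7.72 and 7.99 CPM in NoDox_d4 libraries. Like its neighbours it lay higher in all doxycycline libraries, by a log2 fold change of 1.79 ± 0.26 at day 2 (edgeR adjusted p = 0.000486) and of 3.25 ± 0.26 at day 4 (edgeR adjusted p = 8.97e-06). All 3 genes held their calls in every fit with a library left out.

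In D3Dox_d4 libraries, Chrna3 had the highest level per length of all receptor genes, 45.2 ± 2.73 FPKM (SD, n = 3). Chrnb4 had 23.9 ± 2.76 FPKM and Chrna5 12.7 ± 0.884 FPKM in the same libraries, so that their order per length was alpha3, beta4, alpha5, with gaps larger than the spread. The 3 genes span chr9:54980880-55048779 (GRCm38). Chrna5 (ENSMUSG00000035594.10) lies on the plus strand, and Chrna3 (ENSMUSG00000032303.8) and Chrnb4 (ENSMUSG00000035200.7) lie on the minus strand, with gaps of 2331 and 1591 bases between neighbours. Their promoter windows are shown because the genes moved together. They are from RefSeq (GRCm38.p6), at chr9:55026513-55026812 on the minus strand for Chrna3, chr9:54980630-54980929 on the plus strand for the first of 2 entries of Chrna5, and chr9:55048495-55048794 on the minus strand for Chrnb4, whose start lies 235 bases from that of the gene model. Capitals mark CANNTG, the E-box core that basic helix-loop-helix factors are known to bind, searched on both strands, on which it reads the same:
Chrna3 promoter: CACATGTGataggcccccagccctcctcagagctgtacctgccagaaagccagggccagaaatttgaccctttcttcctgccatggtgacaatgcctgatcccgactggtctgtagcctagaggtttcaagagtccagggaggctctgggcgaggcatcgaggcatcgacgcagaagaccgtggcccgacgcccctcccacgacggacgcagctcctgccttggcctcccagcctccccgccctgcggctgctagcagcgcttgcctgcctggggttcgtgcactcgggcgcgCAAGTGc
Chrna5 promoter: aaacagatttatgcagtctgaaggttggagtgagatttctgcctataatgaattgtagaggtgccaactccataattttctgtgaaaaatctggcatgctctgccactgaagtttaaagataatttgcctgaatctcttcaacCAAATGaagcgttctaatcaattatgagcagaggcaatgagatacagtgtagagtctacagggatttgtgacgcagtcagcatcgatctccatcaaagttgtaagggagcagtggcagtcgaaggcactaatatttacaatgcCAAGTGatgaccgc
Chrnb4 promoter: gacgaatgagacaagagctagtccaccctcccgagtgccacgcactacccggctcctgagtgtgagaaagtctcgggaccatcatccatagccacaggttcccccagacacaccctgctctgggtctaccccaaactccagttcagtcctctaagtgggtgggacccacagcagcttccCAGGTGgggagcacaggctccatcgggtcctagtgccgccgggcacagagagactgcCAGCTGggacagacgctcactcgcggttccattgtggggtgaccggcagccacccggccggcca
The windows of Chrna3, Chrna5 and Chrnb4 held 3, 2 and 2 matches, of which the first 2 of Chrna3 overlap, and 72.3% of all promoter windows held at least 1. Neither TAATNNNATTA nor TAATTA was found in these 3 windows.

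**Figure D3:**
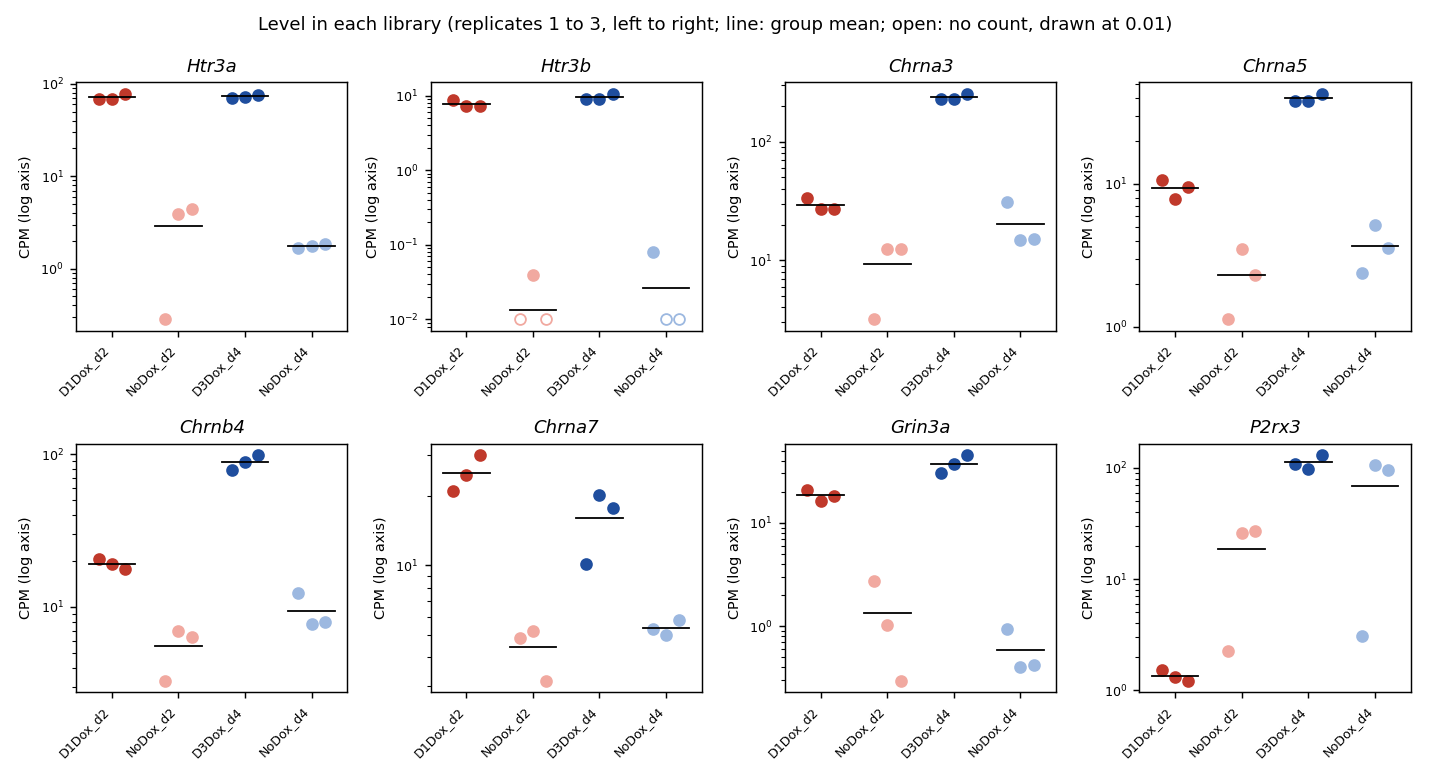
CPM (log axis) of 8 receptor genes in each library, with the doxycycline group left of its control at each day, replicates 1 to 3 from left to right, a line at the group mean, and open points for libraries with no count drawn at 0.01. Chrna3, Chrna5 and Chrnb4 stand higher in D3Dox_d4 than in D1Dox_d2, while the Htr3a points of these groups lie at the same height. P2rx3 has 1 low point in each NoDox group, replicate 1.

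Chrna7 encodes the alpha7 subunit, which forms a channel by itself and lets calcium pass. It had 20.9, 24.6 and 30.1 CPM in D1Dox_d2 libraries, against 4.84, 5.22 and 3.16 CPM in NoDox_d2 libraries. Day 4 levels were 10.1, 20.2 and 17.8 CPM in D3Dox_d4 libraries, against 5.32, 5.00 and 5.80 CPM in NoDox_d4 libraries. The rise was 2.52 ± 0.27 on the log2 scale at day 2 (edgeR adjusted p = 7.31e-05) and 1.58 ± 0.27 at day 4 (edgeR adjusted p = 0.00147), and the difference between the days did not pass the test (-0.94 ± 0.37, edgeR adjusted p = 0.116). Chrnb2 encodes beta2, the most common partner of alpha subunits in the brain. It was not called at day 2, with 8.30, 5.13 and 6.37 CPM in D1Dox_d2 and 5.65, 6.29 and 5.80 CPM in NoDox_d2 libraries (log2 fold change 0.16 ± 0.28, edgeR adjusted p = 0.699). At day 4 Chrnb2 had 48.3, 46.3 and 50.7 CPM in D3Dox_d4 libraries, against 3.98, 9.60 and 8.91 CPM in NoDox_d4 libraries, a rise of 2.69 ± 0.28 (edgeR adjusted p = 5.87e-05). Of the exon bases of Chrnb2, 16.3% overlap Adar on the other strand. Whether reads of Adar enter the Chrnb2 count is not known, as strand use in counting is not given.

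Muscle-type subunits are among the called genes. Chrnb1, the beta subunit of the muscle receptor, had 12.6, 10.7 and 10.9 CPM in D1Dox_d2 libraries, against 7.94, 5.65 and 5.13 CPM in NoDox_d2 libraries (log2 fold change 0.87 ± 0.25, edgeR adjusted p = 0.0235). This call ended without any 1 of the 3 D1Dox_d2 libraries or of NoDox_d2 replicates 2 and 3 (edgeR adjusted p 0.00574 to 0.0989 over the 6 fits). Chrng, the gamma subunit of the fetal muscle receptor, had 2.28, 1.33 and 1.67 CPM in D3Dox_d4 libraries, against 0.316, 0.407 and 0.269 CPM in NoDox_d4 libraries (log2 fold change 2.40 ± 0.57, edgeR adjusted p = 0.0107). The other muscle subunits, Chrnd and Chrne, were too low to test, and Chrna1 was not called at either day. The remaining nicotinic genes tested, Chrna4 and Chrna9, were not called either. Chrna4 had 10.8 to 12.1 CPM in D1Dox_d2 and 14.02 to 30.2 CPM in NoDox_d2 libraries, and 52.9 to 67.5 CPM in D3Dox_d4 and 16.9 to 64.0 CPM in NoDox_d4 libraries. Without both NoDox replicates 1, Chrna4 was called lower at day 2, and Chrna1 higher (1.30, edgeR adjusted p = 0.0288). Chrna9, at no more than 0.953 CPM in any library, was then called higher at both days (3.92, edgeR adjusted p = 0.00877, and 3.55, 0.00838). These values rest on few counts, with 0 and 1 in the NoDox_d2 and 2 and 0 in the NoDox_d4 libraries that remained.

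P2X receptors are cation channels gated by extracellular ATP. P2rx2 had 2.50, 3.34 and 3.34 CPM in D1Dox_d2 libraries, against 0.459, 0.119 and 0.297 CPM in NoDox_d2 libraries (log2 fold change 3.35 ± 0.52, edgeR adjusted p = 0.000757). In D3Dox_d4 libraries it had 0.832, 1.88 and 1.59 CPM, against 0.394, 0.163 and 0.615 CPM in NoDox_d4 libraries (1.86 ± 0.50, edgeR adjusted p = 0.0201). The day 4 call ended without D3Dox_d4 replicate 2 or 3 or NoDox_d4 replicate 2, with edgeR adjusted p between 0.0165 and 0.0769 over the 6 fits. P2rx5 had 1.86, 1.38 and 1.86 CPM in D1Dox_d2 libraries, against 0.318, 0.553 and 0.446 CPM in NoDox_d2 libraries (1.95 ± 0.33, edgeR adjusted p = 0.00142). Its day 4 levels were 0.976, 1.11 and 0.677 CPM in D3Dox_d4 libraries, against 0.513, 0.488 and 0.346 CPM in NoDox_d4 libraries (1.03 ± 0.34, edgeR adjusted p = 0.0444). That call ended without D3Dox_d4 replicate 1 or 2 or any of the 3 NoDox_d4 libraries, and also in the DESeq2 test (adjusted p = 0.0558).

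P2rx7, a channel known from immune cells and glia, had 4.09, 4.80 and 6.50 CPM in D1Dox_d2 libraries, against 2.79, 1.34 and 0.967 CPM in NoDox_d2 libraries. It rose by 1.59 ± 0.42 on the log2 scale (edgeR adjusted p = 0.0163), a call that ended without D1Dox_d2 replicate 3 or NoDox_d2 replicate 2 or 3 (edgeR adjusted p 0.00152 to 0.0686 over the 6 fits). P2rx3, the pain-sensing channel of sensory neurons and the partner of P2rx2, moved the other way at day 2. It had 1.51, 1.30 and 1.21 CPM in D1Dox_d2 libraries, against 2.26, 26.1 and 27.2 CPM in NoDox_d2 libraries. At day 4 P2rx3 had 109, 98.9 and 131 CPM in D3Dox_d4 libraries, against 3.08, 107 and 96.2 CPM in NoDox_d4 libraries. Replicate 1 of either NoDox group was far below its fellows. The day 2 fall was 3.77 ± 1.13 on the log2 scale (edgeR adjusted p = 0.0285) and was lost without any 1 library but NoDox_d2 replicate 1 (edgeR adjusted p 0.0058 to 0.0927 over the 6 fits), while without both NoDox replicates 1 it was -4.31 with an edgeR adjusted p of 4.73e-11. No call was made at day 4 (0.71 ± 0.91, edgeR adjusted p = 0.625). P2rx4 and P2rx6 were not called at either day in the fit of all libraries. P2rx4 was called higher at day 2 without both NoDox replicates 1 (0.42, edgeR adjusted p = 0.0262).

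Ionotropic glutamate receptors carry most fast excitation in the brain. The AMPA receptor genes Gria2 and Gria3 were higher at both days. Gria2, whose edited subunit keeps calcium out of the channel, had 7.65, 6.59 and 7.15 CPM in D1Dox_d2 libraries, against 1.66, 0.672 and 0.483 CPM in NoDox_d2 libraries (log2 fold change 2.91 ± 0.45, edgeR adjusted p = 0.000765). Without NoDox_d2 replicate 1 this value was 3.61. Its levels at day 4 were 16.99, 21.8 and 22.6 CPM in D3Dox_d4 libraries, against 1.89, 5.25 and 4.88 CPM in NoDox_d4 libraries (2.35 ± 0.41, edgeR adjusted p = 0.00187). Gria3 had 52.8, 61.6 and 62.4 CPM in D1Dox_d2 libraries, against 26.2, 29.8 and 28.1 CPM in NoDox_d2 libraries (1.07 ± 0.17, edgeR adjusted p = 0.0011). In D3Dox_d4 libraries it had 34.9, 41.5 and 37.8 CPM, against 11.8, 18.2 and 20.7 CPM in NoDox_d4 libraries (1.17 ± 0.18, edgeR adjusted p = 0.000722). Gria1 was low, at 0.488 to 0.910 CPM in D1Dox_d2 and 0.0353 to 0.158 CPM in NoDox_d2 libraries. Its summed counts were 56 and 7, a ratio of 8.70 (95% interval 3.96 to 22.6), and it was called at day 2 (edgeR adjusted p = 0.0021). Its fitted log2 fold change of 3.04 became 3.67 without NoDox_d2 replicate 2. Gria1 was also called higher at day 4 without both NoDox replicates 1 (1.67, edgeR adjusted p = 0.0101). Gria4 was not called.

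Of the kainate receptor genes, Grik3 and Grik5 had the highest levels in CPM in every library. Grik3 had 153, 161 and 161 CPM in D1Dox_d2 libraries, against 56.5, 85.5 and 71.7 CPM in NoDox_d2 libraries (log2 fold change 1.15 ± 0.38, edgeR adjusted p = 0.0424). That call ended without any 1 of the 6 libraries (edgeR adjusted p 0.069 to 0.109) but stood without both NoDox replicates 1 (1.01, edgeR adjusted p = 0.000209). At day 4 Grik3 had 231, 344 and 382 CPM in D3Dox_d4 libraries, against 34.0, 109 and 138 CPM in NoDox_d4 libraries (1.77 ± 0.39, edgeR adjusted p = 0.00687). Grik2 had 1.71, 1.38 and 1.30 CPM in D1Dox_d2 libraries, against 0.494, 0.870 and 0.558 CPM in NoDox_d2 libraries (1.19 ± 0.29, edgeR adjusted p = 0.0115), a call that ended without NoDox_d2 replicate 3 (edgeR adjusted p = 0.0522). At day 4 Grik2 had 7.23, 8.89 and 8.20 CPM in D3Dox_d4 libraries, against 1.66, 2.19 and 2.84 CPM in NoDox_d4 libraries (1.86 ± 0.27, edgeR adjusted p = 0.000533). Grik1 was higher at day 2 only. It had 4.28, 3.99 and 5.89 CPM in D1Dox_d2 libraries, against 0.494, 0.553 and 0.595 CPM in NoDox_d2 libraries (3.10 ± 0.47, edgeR adjusted p = 0.000665). At day 4 its levels were 0.868, 0.701 and 1.39 CPM in D3Dox_d4 and 0.631, 1.91 and 2.61 CPM in NoDox_d4 libraries, which overlap. Grik1 was called lower at day 4 without both NoDox replicates 1 (-1.20, edgeR adjusted p = 0.00668).

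Grik4 and Grik5 encode the kainate subunits that need a partner from Grik1, Grik2 or Grik3 to form a channel. Grik4 was higher at day 4, with 8.68, 11.1 and 12.3 CPM in D3Dox_d4 libraries, against 2.05, 3.38 and 3.61 CPM in NoDox_d4 libraries (log2 fold change 1.83 ± 0.49, edgeR adjusted p = 0.0188). The call ended without D3Dox_d4 replicate 2 or 3 (edgeR adjusted p = 0.0517 and 0.062). Grik4 was called lower at day 2 without both NoDox replicates 1 (-0.90, edgeR adjusted p = 0.00259). Grik5 fell slightly at day 2, to 52.5, 50.1 and 56.2 CPM in D1Dox_d2 libraries, against 60.9, 78.7 and 79.1 CPM in NoDox_d2 libraries (-0.46 ± 0.13, edgeR adjusted p = 0.0186). This call ended without D1Dox_d2 replicate 2 or NoDox_d2 replicate 2 or 3 (edgeR adjusted p = 0.0679, 0.0702 and 0.0748). Without both NoDox replicates 1, Grik5 was also called higher at day 4 (0.25, edgeR adjusted p = 0.0419). Delta receptors share the family's structure and act as adhesion molecules at synapses. Grid1 had 6.63, 6.02 and 6.76 CPM in D1Dox_d2 libraries, against 1.09, 2.02 and 1.86 CPM in NoDox_d2 libraries (1.97 ± 0.33, edgeR adjusted p = 0.00141). At day 4 Grid1 had 15.2, 19.2 and 19.5 CPM in D3Dox_d4 libraries, against 1.34, 2.56 and 3.73 CPM in NoDox_d4 libraries (2.82 ± 0.33, edgeR adjusted p = 0.000136).

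NMDA receptors need the Grin1 subunit for every channel. Grin1 stayed at or below 1.42 CPM in all 12 libraries and was not called at either day, and 13.5% of its exon bases overlap Grin1os on the other strand. It was called lower at day 2 without both NoDox replicates 1 (-2.14, edgeR adjusted p = 0.0231). Grin3a, whose subunit lowers the calcium entry of NMDA receptors, had 20.6, 16.4 and 18.4 CPM in D1Dox_d2 libraries, against 2.72, 1.03 and 0.297 CPM in NoDox_d2 libraries (log2 fold change 3.76 ± 0.53, edgeR adjusted p = 0.000437). Without NoDox_d2 replicate 1 it was 4.79. At day 4 Grin3a had 30.4, 36.7 and 45.2 CPM in D3Dox_d4 libraries, against 0.947, 0.407 and 0.423 CPM in NoDox_d4 libraries (5.97 ± 0.60, edgeR adjusted p = 4.25e-05). Per length, Grin3a reached 2.48, 2.99 and 3.69 FPKM in D3Dox_d4 libraries, in which Grin1 had 0.0708, 0.0608 and 0.0738 FPKM. The Grin3a level per length lay above that of the obligatory subunit in all 3 libraries.

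The Grin2 subunits bind glutamate and differ in channel kinetics. Grin2c had 10.7, 15.4 and 13.1 CPM in D3Dox_d4 libraries, against 2.29, 5.29 and 3.69 CPM in NoDox_d4 libraries (log2 fold change 1.80 ± 0.31, edgeR adjusted p = 0.00153), and was not called at day 2. Leaving out both NoDox replicates 1, it was called lower at day 2 (-0.96, edgeR adjusted p = 0.00118). Grin2d had 3.90, 4.07 and 5.67 CPM in D1Dox_d2 libraries, against 1.94, 2.33 and 2.12 CPM in NoDox_d2 libraries (1.09 ± 0.27, edgeR adjusted p = 0.0125). In D3Dox_d4 libraries Grin2d had 2.86, 5.53 and 3.74 CPM, against 2.05, 2.19 and 1.69 CPM in NoDox_d4 libraries (1.03 ± 0.27, edgeR adjusted p = 0.0186). The first of these calls ended without D1Dox_d2 replicate 3 (edgeR adjusted p = 0.0632) and the second without D3Dox_d4 replicate 2 or NoDox_d4 replicate 3 (edgeR adjusted p = 0.0904 and 0.0687). Grin2b had 0.832, 1.70 and 2.03 CPM in D3Dox_d4 libraries, against 0.355, 0.447 and 0.384 CPM in NoDox_d4 libraries (1.93 ± 0.50, edgeR adjusted p = 0.0166). It lost the call without D3Dox_d4 replicate 2 or 3 or NoDox_d4 replicate 3 (edgeR adjusted p 0.0117 to 0.0674 over the 6 fits). Grin2b was called higher at day 2 as well without both NoDox replicates 1 (1.54, edgeR adjusted p = 0.0144). Grin2a was the one NMDA gene called lower in the fit of all libraries. It fell to 1.63, 1.44 and 1.59 CPM in D3Dox_d4 libraries, against 2.48, 3.29 and 3.996 CPM in NoDox_d4 libraries (-1.07 ± 0.28, edgeR adjusted p = 0.0176). That call ended without D3Dox_d4 replicate 2 or 3 or NoDox_d4 replicate 3 (edgeR adjusted p = 0.0649, 0.0554 and 0.0688).

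GABA-A receptors are chloride channels that mediate most fast inhibition. Gabrb2, a beta subunit of the common brain receptor, had 4.24, 4.92 and 4.94 CPM in D1Dox_d2 libraries, against 1.41, 1.94 and 1.15 CPM in NoDox_d2 libraries (log2 fold change 1.65 ± 0.30, edgeR adjusted p = 0.00214). At day 4 it had 8.31, 15.3 and 12.9 CPM in D3Dox_d4 libraries, against 2.01, 1.46 and 1.11 CPM in NoDox_d4 libraries (2.99 ± 0.31, edgeR adjusted p = 4.92e-05). Gabra3, an alpha subunit of the immature brain, fell at day 2 to 1.67, 1.46 and 0.953 CPM in D1Dox_d2 libraries, against 5.51, 6.36 and 5.91 CPM in NoDox_d2 libraries (-2.11 ± 0.26, edgeR adjusted p = 0.000151). At day 4 its levels overlapped, at 5.10, 6.05 and 7.04 CPM in D3Dox_d4 and 6.43, 4.92 and 4.19 CPM in NoDox_d4 libraries. Gabra2 had 0.692 to 1.04 CPM in D1Dox_d2 and 0 to 0.141 CPM in NoDox_d2 libraries, or 66 counts against 5, a ratio of 14.4 (95% interval 5.85 to 45.6). It was called at day 2 (edgeR adjusted p = 0.00452), with a fitted log2 fold change of 3.76 that became 5.21 without NoDox_d2 replicate 1.

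Of the Gabr clusters, those on chromosomes 5, 7, 11 and X held tested genes, and in none of them were all tested genes called at either day. On chromosome X Gabra3 was called at day 2 while its neighbours Gabre and Gabrq were not. Gabrq was called lower at day 2 without both NoDox replicates 1 (-1.88, edgeR adjusted p = 0.00477). Receptor genes within 500000 bases of one another formed 12 clusters with 31 genes. The Htr3 pair and the Chrn trio on chromosome 9 are the clusters whose members were all tested and all called higher at both days. Glycine receptors are the chloride channels of spinal cord and brainstem. Glra1 had 1.63 to 3.60 CPM in D1Dox_d2 and 0.989 to 19.4 CPM in NoDox_d2 libraries, where replicate 1 was the low one, and was not called (edgeR adjusted p = 0.0614), though it was without both NoDox replicates 1, as given above.

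Among the G protein-coupled serotonin receptors, the Gi-coupled Htr1b had 4.55, 4.07 and 5.80 CPM in D1Dox_d2 libraries, against 1.52, 0.474 and 0.0744 CPM in NoDox_d2 libraries (log2 fold change 2.78 ± 0.65, edgeR adjusted p = 0.00872). Without NoDox_d2 replicate 1, the highest of its group, it was 4.11, and 18.04% of its exon bases overlap D430036J16Rik on the other strand. Htr1d, its close relative, had 1.21, 0.936 and 1.73 CPM in D1Dox_d2 libraries, against 0.565, 0.277 and 0.0372 CPM in NoDox_d2 libraries (2.11 ± 0.61, edgeR adjusted p = 0.0241). This call ended on leaving out NoDox_d2 replicate 2 or 3, or D1Dox_d2 replicate 1 or 3, with edgeR adjusted p up to 0.0928, and without NoDox_d2 replicate 1 the value was 3.01. Htr2b, a Gq-coupled receptor of heart and gut development, had 2.69, 2.36 and 3.86 CPM in D1Dox_d2 libraries, against 0.883, 0.553 and 0.335 CPM in NoDox_d2 libraries (2.32 ± 0.43, edgeR adjusted p = 0.00235). Its exons overlap Psmd1 on the other strand over 11.8% of their bases. None of these 3 genes was called at day 4, when they had at most 0.506 CPM in D3Dox_d4 and 0.631 CPM in NoDox_d4 libraries. Htr5b was lower at day 2, at 0.0433 to 0.285 CPM in D1Dox_d2 and 0.565 to 0.818 CPM in NoDox_d2 libraries (edgeR adjusted p = 0.0438), and lost the call without any 1 library but NoDox_d2 replicate 1 (edgeR adjusted p 0.0404 to 0.139 over the 6 fits), as well as without the filter on low counts (0.0707) and with the replicate block (0.0705).

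Of the metabotropic glutamate receptors, Grm8 was higher at day 2, with 0.871, 1.55 and 1.13 CPM in D1Dox_d2 libraries, against 0.494, 0.0790 and 0.186 CPM in NoDox_d2 libraries (log2 fold change 2.18 ± 0.55, edgeR adjusted p = 0.013). It lost the call without D1Dox_d2 replicate 2 or NoDox_d2 replicate 3 (edgeR adjusted p = 0.0552 and 0.0578), and the value was 3.08 without NoDox_d2 replicate 1. Grm3 was the only receptor gene called lower at both days in the fit of all libraries. It had 6 counts in D1Dox_d2 against 49 in NoDox_d2 libraries, a ratio of 0.133 (95% interval 0.0466 to 0.311), and 9 counts in D3Dox_d4 against 57 in NoDox_d4 libraries, a ratio of 0.150 (0.0653 to 0.305). Its calls (edgeR adjusted p = 0.0234 and 0.0243) ended at day 2 without D1Dox_d2 replicate 2 or 3 or NoDox_d2 replicate 2, and at day 4 without D3Dox_d4 replicate 2 or 3 or NoDox_d4 replicate 2 or 3, with adjusted p up to 0.0874 and 0.0992. The fitted values of -2.86 and -2.70 became -4.58 and -3.60 without replicate 1 of D1Dox_d2 and of D3Dox_d4. Grm2, Grm4 and Grm6 were not called in the fit of all libraries. Grm4 had 6.585 to 7.04 CPM in D1Dox_d2 and 7.45 to 28.85 CPM in NoDox_d2 libraries, and 18.7 to 25.7 CPM in D3Dox_d4 and 3.79 to 27.0 CPM in NoDox_d4 libraries, which overlap at day 4. Without both NoDox replicates 1, Grm2 (-1.98, edgeR adjusted p = 3.56e-05) and Grm4 (-1.99, 3.34e-08) were called lower and Grm6 higher (4.05, 3.14e-05) at day 2, and Grm2 (-0.997, 0.000441) and Grm6 (-5.06, 0.00669) lower at day 4. Grm6 had 2.08 to 2.64 CPM in D1Dox_d2, 0.0744 to 6.18 CPM in NoDox_d2, and no count in the 3 D3Dox_d4 libraries, against 0.122 to 0.868 CPM in NoDox_d4 libraries. Without both NoDox replicates 1, its values rest on 5 and 2 counts in NoDox_d2 and 3 and 5 in NoDox_d4 libraries.

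**Figure D4:**
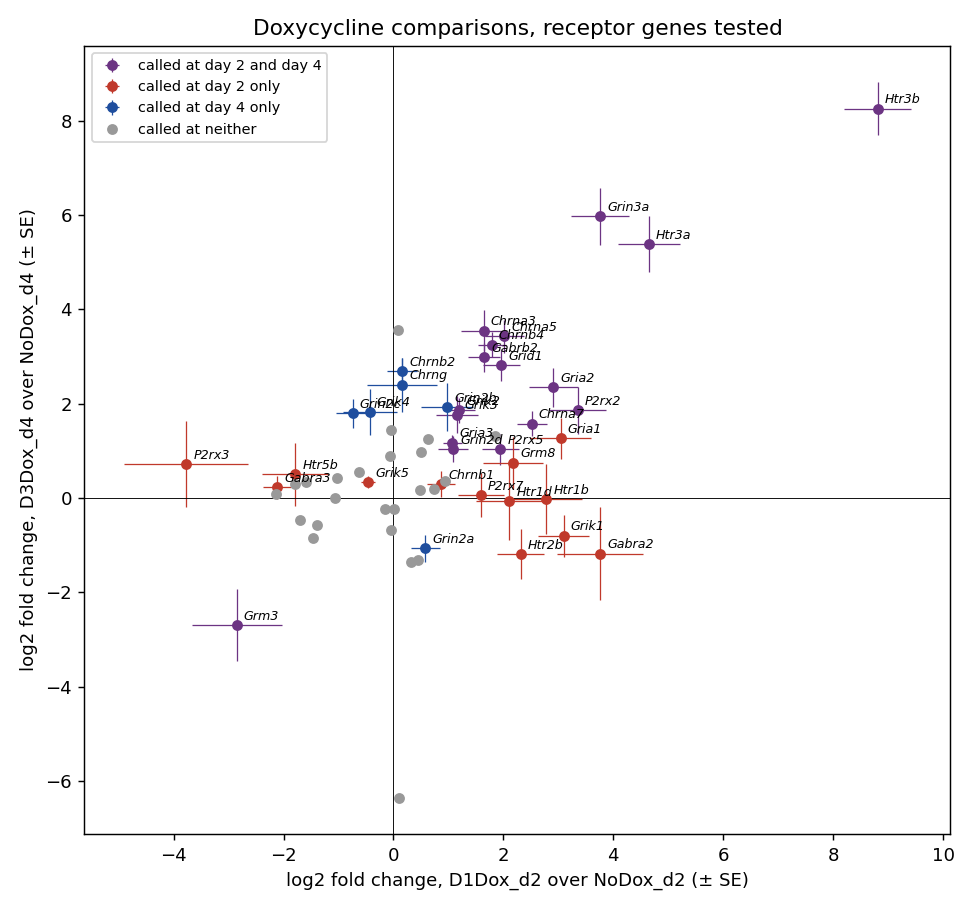
Log2 fold change of the receptor genes tested and reported here, D1Dox_d2 over NoDox_d2 on the horizontal axis and D3Dox_d4 over NoDox_d4 on the vertical axis, coloured by the day of the call, with SE bars for called genes. Most purple points, called at both days, lie in the upper right, with Htr3b at 8.81 and 8.26, and Grm3 is the purple point in the lower left.

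The effects of doxycycline at the days differed for some genes. The difference of the effects, day 4 minus day 2, was higher than 0 for 5 receptor genes and lower for 4. This is 14.3% of those tested, near the 12.9% of all genes that were called, 6.66% higher and 6.24% lower. Chrnb2, Chrnb4, Grin2c, Gabra3 and Grik5 had the more positive effect at day 4, and Grik1, Htr2b, Gabra2 and Grin2a at day 2. The difference was 2.53 ± 0.39 for Chrnb2 (edgeR adjusted p = 0.00283) and -3.90 ± 0.64 for Grik1 (edgeR adjusted p = 0.00367). For Chrna3 it was 1.90 ± 0.58 and missed the threshold (edgeR adjusted p = 0.0503), and for Chrna5 1.41 ± 0.48 (edgeR adjusted p = 0.076). Without both NoDox replicates 1, the counts were 19 higher and 12 lower, and Chrna3 and Chrna5 were among the 19. The number of all genes called for the difference rose from 2336 to 6424 in that fit. For the other genes called at 1 day only, a difference between the days is not shown.

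Between the days without doxycycline, the calls went both ways. In NoDox_d4 against NoDox_d2 libraries, 6 were higher and 4 were lower, or 15.9% of those tested, where 10.6% of all genes were called, 5.09% higher and 5.55% lower, and the median log2 fold change of the 63 genes was 0.03. Gria2 (2.08, edgeR adjusted p = 0.0123), Glrb (1.67, 0.0081), Grik2 (1.80, 0.00288), Gria1 (2.37, 0.0215) and Grik1 (1.64, 0.0442) were among those higher at day 4. Glrb, the anchor subunit of the glycine receptor, had 5.25, 10.7 and 10.3 CPM in NoDox_d4 libraries, against 1.73, 2.88 and 3.64 CPM in NoDox_d2 libraries. Chrnb1 (-1.77, edgeR adjusted p = 0.00187), Chrna1 (-2.45, 0.023), Htr7 (-2.56, 0.0138) and Gria3 (-0.73, 0.022) were lower at day 4. The calls of Gria2, Glrb, Grik2 and Chrnb1 held in every fit with 1 library left out. Gria1 lost its call without both NoDox replicates 1 (1.59, edgeR adjusted p = 0.108) and without NoDox_d2 replicate 1 or 3, and stood at 3.01 without NoDox_d2 replicate 2. Chrna1 lost it without both NoDox replicates 1 (-1.42, edgeR adjusted p = 0.135), and without NoDox_d2 replicate 1 or NoDox_d4 replicate 2 or 3. Grik1 lost it without any 1 library but NoDox_d4 replicate 1, Htr7 without NoDox_d4 replicate 2 or 3, and Gria3 without NoDox_d2 replicate 2 or 3. An edgeR fit on the 6 NoDox libraries alone called 206 genes in all and 0 receptor genes, of which 9 had an unadjusted p under 0.05, and the DESeq2 test on all libraries called 9 higher and 5 lower.

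The genes around the receptors were described by lists drawn up by function, whose counts are to be read against the 28.4% of all genes called at day 2 and the 23.5% at day 4. The genes named from the lists in this paragraph and the next were all called higher where values are given. Genes of these lists that were called lower are not named. Of 23 auxiliary subunits and assembly factors tested, 2 were higher and 4 lower at day 2, and 9 were called at day 4, all higher. Lypd1, which binds nicotinic receptors, had 34.6 to 40.3 CPM in D1Dox_d2 and 0.119 to 1.17 CPM in NoDox_d2 libraries (log2 fold change 5.87 ± 0.54, edgeR adjusted p = 2.07e-05), and 7.74 to 8.89 CPM in D3Dox_d4 and 0.407 to 1.22 CPM in NoDox_d4 libraries (3.58 ± 0.51, edgeR adjusted p = 0.000495). Of 21 genes for postsynaptic scaffold and adhesion proteins, 2 were higher and 5 lower at day 2, and 9 were called at day 4, all higher. Nlgn1, the neuroligin of excitatory synapses, was higher at both days (5.78 ± 0.69, edgeR adjusted p = 0.000126, and 4.79 ± 0.57, edgeR adjusted p = 0.000142). Gphn, the gephyrin scaffold of inhibitory synapses, had 76.8 to 96.1 CPM in D3Dox_d4 and 31.8 to 41.4 CPM in NoDox_d4 libraries (1.18 ± 0.17, edgeR adjusted p = 0.00043). The median log2 fold change of both lists was 0.54 at day 4, where that of all genes was -0.03. At day 2 it was 0.11 for the auxiliary and assembly list and -0.18 for the scaffold and adhesion list.

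Further lists held the genes that make and carry the transmitters themselves, with the same shares of all genes called. Of 5 acetylcholine genes, 2 were higher at day 2 and 3 at day 4, with none lower. Chat, which makes acetylcholine, had 1.99 to 2.73 CPM in D1Dox_d2 and 0.282 to 1.15 CPM in NoDox_d2 libraries (log2 fold change 1.84 ± 0.40, edgeR adjusted p = 0.00621), and 9.62 to 13.2 CPM in D3Dox_d4 and 0.473 to 0.854 CPM in NoDox_d4 libraries (4.05 ± 0.42, edgeR adjusted p = 5e-05). Slc18a3, the vesicular acetylcholine transporter, was higher at day 4 (3.0 ± 0.26, edgeR adjusted p = 1.62e-05). Of 7 serotonin genes, 1 was higher and 2 lower at day 2, and 3 were higher and 1 lower at day 4. The serotonin transporter Slc6a4 had 9.36 to 10.8 CPM in D1Dox_d2 and 0.176 to 0.237 CPM in NoDox_d2 libraries (5.54 ± 0.28, edgeR adjusted p = 2.68e-07). Of 7 GABA genes, 1 was higher and 5 were lower at day 2, and 2 were higher at day 4. The median log2 fold change of this list was -1.82 at day 2 and 0.15 at day 4. The 1 gene of this list higher at day 2 was Gad2, a GABA-making enzyme. Gad2 was higher at both days (2.46 ± 0.32, edgeR adjusted p = 0.00026, and 1.34 ± 0.32, edgeR adjusted p = 0.0114). Of 7 glutamate vesicle and uptake genes, edgeR called 0 at day 2, where 1 had an unadjusted p under 0.05 and DESeq2 called 1, and 3 were higher at day 4, among them the vesicular transporters Slc17a6 (2.93 ± 0.65, edgeR adjusted p = 0.00741) and Slc17a7 (2.14 ± 0.58, edgeR adjusted p = 0.0193). Of 3 glycine genes, 1 was higher at each day, the transporter Slc6a5 (7.09 ± 0.58, edgeR adjusted p = 8.21e-06, and 2.92 ± 0.48, edgeR adjusted p = 0.00122), and 1 was lower at day 2. Of 24 further G protein-coupled transmitter receptors, 8 were higher and 3 lower at day 2, and 9 were called at day 4, all higher, with the muscarinic receptor Chrm3 (5.10 ± 0.73 and 5.01 ± 0.74) among those higher at both days.

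Markers of cell types were measured in the same libraries. The summed level of 12 neuron markers was 420 to 520 CPM in D1Dox_d2 and 302 to 426 CPM in NoDox_d2 libraries, ranges that overlap, with 2 of 12 higher. At day 4 it was 1829 to 2037 CPM in D3Dox_d4 and 194 to 671 CPM in NoDox_d4 libraries, with 11 of 12 higher. The 10 markers of sympathetic and autonomic neurons summed to 272 to 308 CPM in D1Dox_d2 and 34.5 to 90.9 CPM in NoDox_d2 libraries, with 5 higher, and to 597 to 692 CPM in D3Dox_d4 and 37.4 to 159 CPM in NoDox_d4 libraries, with 6 higher. Dbh, which makes noradrenaline, had 71.3 to 85.1 CPM in D1Dox_d2 and 0.372 to 0.530 CPM in NoDox_d2 libraries. The 8 fibroblast markers summed to 1610 to 1970.0 CPM in D1Dox_d2 and 205 to 315 CPM in NoDox_d2 libraries, with 7 of 8 higher, and to 415 to 493 CPM in D3Dox_d4 and 124 to 550 CPM in NoDox_d4 libraries, with 1 higher and 2 lower. The NoDox_d4 fibroblast sum was 550 CPM in replicate 1, above all D3Dox_d4 libraries, and 124 and 127 CPM in replicates 2 and 3, below them. At both days, replicate 1 was the lowest NoDox library for the neuron and the sympathetic and autonomic sums, and the highest for the fibroblast sum. Of 6 neural progenitor markers, 4 were lower at day 2, and edgeR and DESeq2 called 0 at day 4, where 1 had an unadjusted edgeR p under 0.05 and an edgeR fit on the 6 libraries compared called 1. Of 4 glia and neural crest markers tested, 2 were higher at day 4, and of 6 skeletal muscle markers 2 were higher and 2 lower at day 2, and 1 was higher and 1 lower at day 4. The part of these cell types in the receptor results was not tested.

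**Figure D5:**
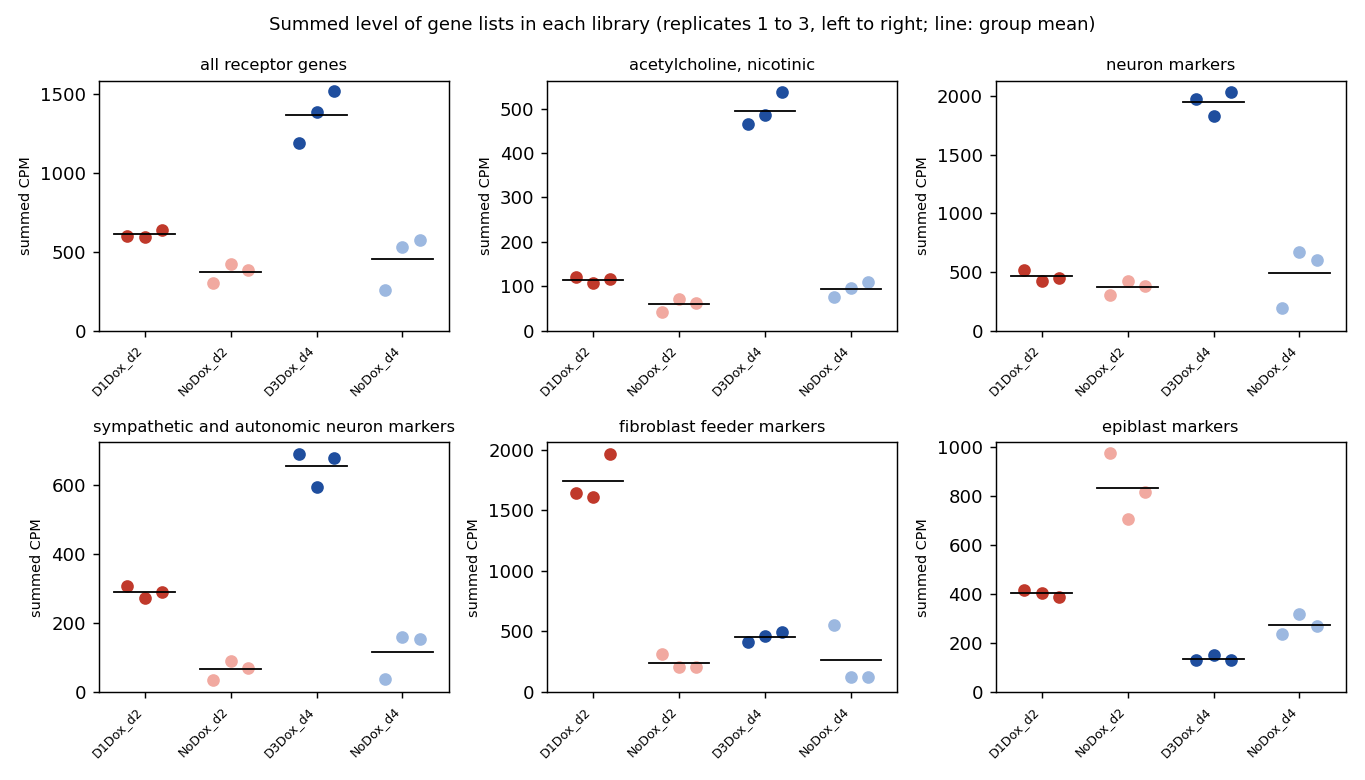
Summed CPM of all 87 receptor genes, of the nicotinic subunits and of marker lists in each library, with the doxycycline group left of its control at each day, replicates 1 to 3 from left to right and a line at the group mean. The receptor sum was 591 to 640 CPM in D1Dox_d2 and 303 to 423 CPM in NoDox_d2 libraries, and 1189 to 1517 CPM in D3Dox_d4 and 255 to 574 CPM in NoDox_d4 libraries, and the neuron marker sum has its gap at day 4.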

How the data were processed

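Bulk RNA-seq was measured in 12 libraries of 4 groups. The deposited table holds raw read counts per gene for 55487 genes, made by the authors with featureCounts 2.0.1, per the file headers. The submitters' processing notes also name STAR, DESeq2 and the GRCm38 (mm10) build. Paired-end reads had been trimmed with Trim Galore, per the labels' protocols. Strand use in counting is not given in the sources used here, so overlaps with genes on the other strand are named beside the values. The table gives gene IDs, of which 55141 matched a symbol.

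Genes passing edgeR's filterByExpr were fitted in all 12 libraries with edgeR 4.0.16 (limma 3.58.1, R 4.3.3) by the quasi-likelihood F-test, with TMM scaling, 1 coefficient per group and 8 residual degrees of freedom. P-values were adjusted over 18109 genes by the Benjamini-Hochberg method, and those under 0.05 were called. CPM and FPKM were computed from the deposited counts. SE is the log2 fold change over the square root of F. Fits were tested on simulated data. The ratios of summed counts have exact intervals that cover counting error only. The alternatives were the DESeq2 1.42.0 test, other scalings and filters, a replicate block, fits on fewer libraries and a stricter threshold.

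The genes and lists were chosen with earlier results of these data known. Called genes that averaged 1 CPM or more in the group where they were higher are given in every library, other called genes by group ranges or summed counts, and the rest by counts or ranges. At most 3 genes of each further list, those with the lowest adjusted p, are named per comparison. Replicate numbers were taken to pair samples only between NoDox_d4 and NoDox_d2, where the deviations of same-numbered libraries from their group means correlated at 0.308 to 0.545, against -0.125 to 0.037 between each doxycycline group and the NoDox group of its day. Between the NoDox groups, replicates 2 and 3 correlated as well across numbers, at 0.325 and 0.416, so that these numbers set replicate 1 apart but do not tell 2 from 3. Some genes that enter the counts, sums and medians are not reported by name here.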

Additional observations from a re-analysis of the deposited data

Results flagged for a closer look

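The effect of doxycycline differed between day 4 and day 2 for 9 of the 63 receptor genes by the test of the difference itself. This is 14.3%, near the 12.9% of all genes, so the count does not set the receptor genes apart. Of the genes with the more positive effect at day 4, Chrnb2 differed by 2.53 on the log2 scale, Grin2c by 2.54 (edgeR adjusted p = 0.00427), Gabra3 by 2.34 (0.00255), Chrnb4 by 1.46 (0.0212) and Grik5 by 0.80 (0.0153). Of those with the more positive effect at day 2, Grik1 differed by -3.90, Htr2b by -3.50 (0.00808), Grin2a by -1.65 (0.0194) and Gabra2 by -4.94 (0.028).

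The calls of Chrnb2, Grin2c, Gabra3, Grik5, Grik1 and Htr2b held when each of the 12 libraries was left out in turn. Chrnb4 lost its call without D1Dox_d2 replicate 2 or 3, D3Dox_d4 replicate 3 or NoDox_d2 replicate 2 or 3 (1.47, 1.42, 1.40, 1.28 and 1.36). Grin2a lost it without D1Dox_d2 replicate 2 or 3 or D3Dox_d4 replicate 2 (-1.44, -1.61 and -1.58). Gabra2, at no more than 0.285 CPM outside D1Dox_d2, lost it without any 1 library other than NoDox_d2 replicate 1 or NoDox_d4 replicate 1 or 3, with values down to -3.42 without NoDox_d4 replicate 2, and was at -6.39 without NoDox_d2 replicate 1.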

How the results depend on the processing

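No receptor gene called in any comparison reversed its direction under any alternative run. Median shifts of all genes under DESeq2 size factors or upper-quartile scaling were between -0.05 and 0.012 on the log2 scale, and neither scaling moved a count of calls by over 1.5 times.

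At an adjusted p under 0.01, the day 2 comparison had 17 receptor genes higher and 1 lower, day 4 had 0 lower, the difference of the effects 3 and 2, NoDox_d4 against NoDox_d2 3 and 1, and all genes called were 2464, 2196, 691 and 775. Without both NoDox replicates 1, lower genes were 13 at day 2 and 6 at day 4, the difference had 19 higher and 12 lower, the NoDox comparison 12 higher, and all genes called were 9902, 7168, 6424 and 4534. The DESeq2 test gave 9 lower at day 2 and 13 higher in the difference, and no filter gave 12 higher there. The filter of 1 CPM in 3 libraries left 3 lower at day 2 and 1 at day 4. Fits on the libraries compared gave 1 lower at day 4, and 0 higher and 0 lower of 206 genes in the NoDox comparison.

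Leaving out 1 library of the groups compared gave 20 to 30 higher and 1 to 12 lower at day 2 (most without NoDox_d2 replicate 1, and 3, 1, 2, 1 and 2 lower without D1Dox_d2 replicates 1 to 3 and NoDox_d2 replicates 2 and 3). It gave 16 to 23 higher and 0 to 4 lower at day 4 (4 without NoDox_d4 replicate 1, 0 without D3Dox_d4 replicate 2 or 3, 1 without NoDox_d4 replicate 2 or 3), 4 to 15 and 2 to 11 in the difference (15 and 11 without NoDox_d2 replicate 1, 10 higher without NoDox_d4 replicate 1, 2 lower without D1Dox_d2 replicate 2 or 3 or D3Dox_d4 replicate 2), and 4 to 12 and 2 to 4 in the NoDox comparison (12 without NoDox_d4 replicate 1, 2 lower without its replicate 2 or 3). All genes called ranged over 3048 to 7438, 2756 to 4286, 1226 to 5037 and 1064 to 3208. In the NoDox comparison, Chrna1 lost its call without NoDox_d2 replicate 1 (-1.77). The cause of these moves was not tested.

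The replicate block, for the pairing of the NoDox groups, left 6 higher and 4 lower in that comparison. In the comparisons whose numbers do not pair samples it gave 27 higher and 5 lower at day 2, 21 and 3 at day 4, and 6 and 4 in the difference. Depth limits the 24 genes that were not tested and the folds of genes with few counts in 1 group.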
